A study of Rattus norvegicus with 12 samples.

Results

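The 41 genes described here encode matrix metalloproteases (MMPs), ADAMTS and ADAMTS-like proteins, and the tissue inhibitors of metalloproteases (TIMPs), measured in cultured rat cortical neurons. They are every gene whose symbol in the deposited 12-library table begins with Mmp and a digit or with Adamts, or is Timp1 to Timp4, with the entry of highest mean kept for each symbol. That gave 21 MMPs, 13 ADAMTS proteases, 3 ADAMTS-like genes and 4 TIMPs, of 17339 gene symbols in the table. Of these 41, 29 passed a filter on low values and were tested among 12073 genes.

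MMPs are zinc-dependent enzymes that cut collagens, laminin, cell-surface receptors and other proteins around cells, and most are secreted as inactive precursors that must be cleaved. ADAMTS proteases are secreted relatives of the ADAM family that bind the matrix through thrombospondin repeats, and several of them cut lecticans, the chondroitin sulphate proteoglycans of brain matrix and perineuronal nets. TIMPs bind the active site of these enzymes and block it, while ADAMTS-like proteins share the matrix-binding repeats but have no protease domain. In brain tissue such enzymes take part in the remodelling of synapses, neurite growth and the opening of perineuronal nets.

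The libraries came from primary cortical neuron cultures of Wistar rats at embryonic day 18. After removal of ribosomal RNA, 12 strand-specific libraries were made from total RNA, 3 from each of wild-type untreated, wild-type tetrodotoxin-treated (TTX), Ehmt1 knockdown untreated and Ehmt1 knockdown TTX-treated cultures. TTX blocks voltage-gated sodium channels and so stops action potentials, and its dose and duration are not given in the sources used here. Knockdown was by an shRNA, a hairpin RNA that cells process into a silencing RNA, targeting Ehmt1, the gene of a euchromatic histone methyltransferase. The sample titles name no control hairpin, so an effect of carrying a hairpin and an effect of losing Ehmt1 cannot be told apart in any knockdown difference. The series' own design text calls the 3 libraries of a group biological replicates, and whether each was a separate culture is not stated, so the p-values measure only the spread between these libraries.

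Levels are given in read equivalents, that is, coverage in units of a single 42 nt read, after the authors' size factors. Libraries held 15108848 to 24787516 read equivalents before those factors. Ehmt1 itself lay between 1037 and 1535 in the 6 knockdown libraries and between 1586 and 2039 in the 6 wild-type libraries, without overlap, although its log2 difference of -0.51 (SE 0.12, adjusted p = 0.127 with limma) did not pass. Within a genotype, the TTX library and the untreated library that carry the same replicate number deviated from their group means together, so each such pair is called a culture here, giving 3 wild-type and 3 knockdown cultures. The fit with the 4 groups alone does not use these pairs, and values from fits that do are named as such. Cells of the cultures are mixed, so fewer cells of a type and less RNA per cell cannot be told apart. Transcript lengths were not used, and levels are therefore compared between libraries only and not between genes.

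All 13 ADAMTS proteases, all 3 ADAMTS-like genes and all 4 TIMPs passed the filter of 10 read equivalents in at least 3 libraries, but only 9 of the 21 MMPs did. These were the gelatinase Mmp2, the furin-activated Mmp11, the membrane-anchored Mmp14, Mmp15, Mmp16, Mmp17 and Mmp24, and the secreted Mmp19 and Mmp28. The remaining 12, Mmp1, Mmp3, Mmp7, Mmp8, Mmp9, Mmp10, Mmp12, Mmp13, Mmp20, Mmp21, Mmp23 and Mmp27, never exceeded 15.3 read equivalents in any library. Mmp1 and Mmp7 were at 0 in all 12. Counts of Mmp1 are uncertain, because rats carry a close copy, Mmp1b. Mmp9, the other gelatinase and a much studied protease of synaptic plasticity, ranged from 0 to 6.61 read equivalents with a median of 0.921, and was at 0 in 4 libraries. Mmp13, a collagenase, ranged from 0 to 7.13, and Mmp3, a stromelysin that can activate other MMPs, was above 0 in 1 library only, at 1.65. The closest to the filter from below was Mmp23, with 2 libraries at 10 or more, and from above Adamts1, with 6.

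**Figure D1:**
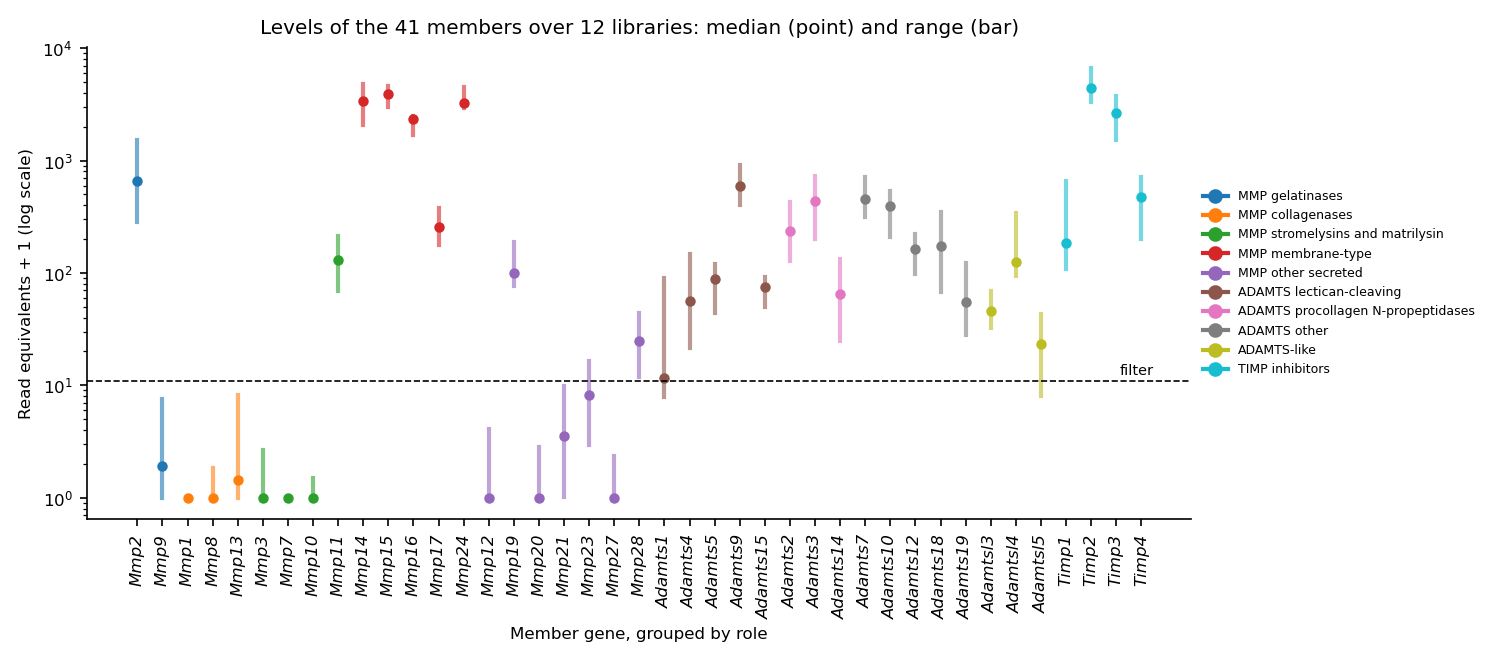
Levels of the 41 genes over the 12 libraries on a log scale (read equivalents plus 1), with the median as a point, the range as a bar and the filter as a dashed line, grouped by role. The medians of the 12 MMPs that did not pass all lie below the line, and since levels are not divided by transcript length the heights of different genes are not comparable.

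Of the 12 MMPs under the filter, 9 are neighbours: in the RefSeq annotation of the later rat assembly GRCr8, Mmp13, Mmp12, Mmp1b, Mmp3, Mmp1, Mmp10, Mmp8, Mmp27, Mmp20 and Mmp7 form a run of 10 consecutive protein-coding Mmp genes. None of those 9 passed the filter. Promoter windows of 300 bases (250 before to 50 after the annotated start) from RefSeq GRCr8 were found for 32 of the 41 genes, 11 of them under the filter and 21 tested. The 9 without a window were Mmp9, under the filter, and the tested Mmp2, Mmp14, Mmp16, Mmp17, Mmp19, Adamts5, Adamts15 and Adamts19. The following 5 windows show examples of both sets. Mmp13 (chr8:12782579-12782878, plus strand) and Mmp3 (chr8:12925031-12925330, plus strand) stand for the genes under the filter. Adamts2 (chr10:35421780-35422079, plus strand), Adamts9 (chr4:127019827-127020126, minus strand) and Adamts7 (chr8:99584279-99584578, plus strand) are the 3 ADAMTS genes whose levels differed with TTX below. Capitals mark matches on either strand to the AP-1 motif TGANTCA, the GC box GGGCGG and the TATA box TATAAA, with sequences written 5′ to 3′ along the gene.
Mmp13: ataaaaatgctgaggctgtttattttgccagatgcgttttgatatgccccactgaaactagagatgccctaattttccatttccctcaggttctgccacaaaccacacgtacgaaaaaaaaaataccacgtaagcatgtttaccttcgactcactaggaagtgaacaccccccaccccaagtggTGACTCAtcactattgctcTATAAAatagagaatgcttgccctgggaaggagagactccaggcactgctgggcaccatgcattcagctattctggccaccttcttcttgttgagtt
Mmp3: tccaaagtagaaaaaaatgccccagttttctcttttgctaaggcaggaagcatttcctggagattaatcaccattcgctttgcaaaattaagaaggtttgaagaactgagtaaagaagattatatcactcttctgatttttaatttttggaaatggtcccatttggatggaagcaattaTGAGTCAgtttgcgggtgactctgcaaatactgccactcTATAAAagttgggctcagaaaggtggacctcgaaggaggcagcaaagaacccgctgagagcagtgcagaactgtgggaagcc
Adamts2: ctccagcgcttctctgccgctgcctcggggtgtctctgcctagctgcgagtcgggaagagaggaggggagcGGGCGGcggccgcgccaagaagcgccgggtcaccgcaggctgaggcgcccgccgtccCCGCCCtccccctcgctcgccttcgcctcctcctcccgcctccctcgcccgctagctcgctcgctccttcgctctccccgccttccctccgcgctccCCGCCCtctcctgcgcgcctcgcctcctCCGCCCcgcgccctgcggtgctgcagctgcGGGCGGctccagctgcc
Adamts9: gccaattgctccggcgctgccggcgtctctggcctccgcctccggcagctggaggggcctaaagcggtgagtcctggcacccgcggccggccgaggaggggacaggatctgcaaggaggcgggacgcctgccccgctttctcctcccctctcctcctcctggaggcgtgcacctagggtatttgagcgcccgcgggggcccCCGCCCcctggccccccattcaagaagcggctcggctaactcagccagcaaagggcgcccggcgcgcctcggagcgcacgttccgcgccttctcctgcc
Adamts7: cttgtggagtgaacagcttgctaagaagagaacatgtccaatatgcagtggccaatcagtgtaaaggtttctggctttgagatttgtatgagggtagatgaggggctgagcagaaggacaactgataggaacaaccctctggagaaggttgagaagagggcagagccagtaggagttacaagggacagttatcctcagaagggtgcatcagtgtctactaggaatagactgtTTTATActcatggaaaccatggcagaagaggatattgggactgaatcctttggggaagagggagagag

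Mmp13 and Mmp3 each hold 1 AP-1 match and 1 TATA match, and no GC box. Adamts2 holds 5 GC boxes and Adamts9 holds 1, with neither of the other motifs, while Adamts7 holds 1 TATA match on the opposite strand and no GC box. With 46.67% GC and 0 CpG dinucleotides, the Adamts7 window is closer to the medians of the windows under the filter, given next, than to those of the tested genes. Among the 11 windows of genes under the filter, 7 (63.6%) held an AP-1 match, 9 (81.8%) a TATA match and 1 (9.09%) a GC box. All 7 with an AP-1 match belong to the run of neighbouring Mmp genes, as do all of the 11 but Mmp21 and Mmp23. Of the 3 motifs Mmp21 held only 1 TATA match, and Mmp23 held only 2 GC boxes, with 66.67% GC. The shares under the filter are therefore mostly those of 1 run of neighbouring genes. Among the 21 windows of tested genes, 0 held an AP-1 match, 3 (14.3%) a TATA match and 15 (71.4%) a GC box. Over all 33469 windows in the table the shares were 7.33%, 14.2% and 33.1%. Those windows include 6012 that repeat a gene symbol, and genes that were not tested here. The shares over tested genes alone are not given. Median GC content was 45.3% in the windows under the filter, 70% in those tested and 51.7% over all, and the median number of CpG dinucleotides was 4, 26 and 7. No motif contains another. A match is a description of these letters and not a site of binding.

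Knockdown and wild-type libraries were compared to ask which genes differ when Ehmt1 is targeted. Mmp2 (NM_031054), which encodes gelatinase A, a secreted enzyme that cuts type IV collagen and gelatin, was the 1 member of the 29 tested that passed, and it was higher in knockdown. Its levels were 284, 333 and 544 read equivalents in the 3 wild-type untreated libraries and 358, 416 and 440 in the 3 wild-type TTX libraries. In knockdown they were 1361, 778 and 1104 untreated and 1512, 1092 and 1277 with TTX. Every knockdown library lay above every wild-type library, and Mmp2 was the only one of the 29 for which that held, against 0.845% of all genes tested. The group means were 387 ± 138 and 405 ± 42.4 in wild-type and 1081 ± 292 and 1294 ± 210 in knockdown (SD, n = 3 each, untreated then TTX).

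Over both treatments the log2 change of Mmp2 was a rise of 1.58 (SE 0.19, 3.00-fold), which passed with groups alone (adjusted p = 0.0449 with limma), with the smallest unadjusted p of all 12073 genes. The change was 1.50 (SE 0.26) among untreated libraries, with an adjusted p of 0.687 in limma, and 1.67 (SE 0.26) among TTX libraries, with an adjusted p of 0.422. Only 3 genes in all, 0.0248% of those tested, passed over both treatments, and the other two were Cntnap5a and Nrsn2. In the authors' deposited table, which sets the 6 knockdown against the 6 wild-type libraries, Mmp2 had a signed z of 8.58 with p = 4.77e-18 and ranked 1 from the top. It also ranked 1 in the authors' deposited tables for untreated libraries (z of 4.905) and for TTX libraries (z of 8.745), which rest on the same libraries. For Mmp2 the authors' p matches the one-sided normal tail of z, and whether it allows for pairs of libraries from 1 culture is not stated.

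The call for Mmp2 rests on taking the 2 libraries of a culture as separate. With culture as a random block the adjusted p from limma was 0.63 and 0 genes (0.0%) passed, and on culture averages it was 0.773. The culture averages were 396 ± 87.4 in wild-type and 1188 ± 251 in knockdown (SD, n = 3 each), a 3.00-fold difference without overlap, for which the exact two-sided permutation test gives 0.1, the smallest p that 3 against 3 allows. With 1 library left out at a time the log2 change lay between 1.49 and 1.72 and limma's adjusted p between 0.0156 and 0.217. The call stayed in 2 of those 12 fits, without the second untreated knockdown library and without the third untreated wild-type library, and was lost without any of the other 10.

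**Figure D2:**
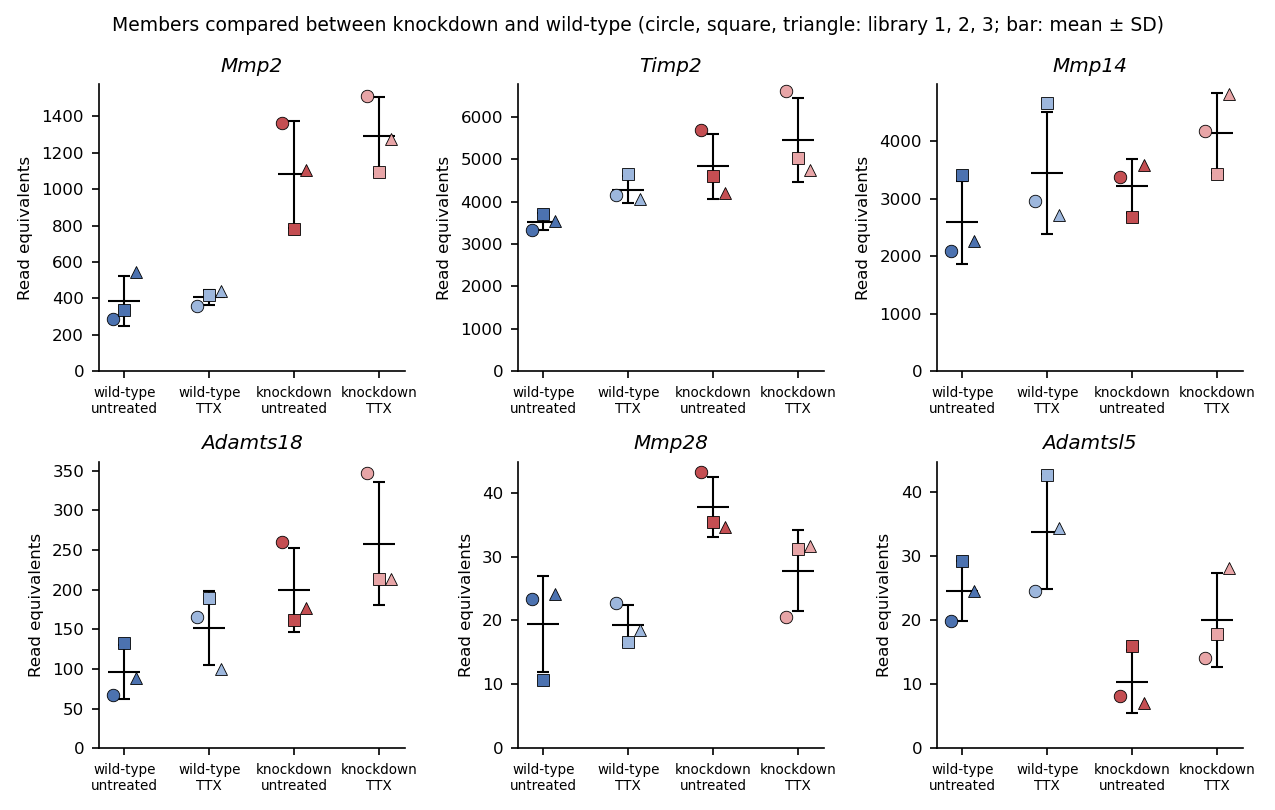
Levels of 6 genes in each of the 12 libraries (read equivalents, linear axes from 0), with circle, square and triangle for libraries 1, 2 and 3 of a group and bars for the mean and SD. For Mmp2 the knockdown libraries lie between 778 and 1512 and the wild-type libraries between 284 and 544, whereas the 6 knockdown and 6 wild-type libraries of the other 5 genes overlap.

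Markers of mural, fibroblast, endothelial and microglial cells were read beside Mmp2. Of 10 mural-cell and fibroblast markers, all were above 0 in some library, 2 (Rgs5 and Anpep) averaged under 3 read equivalents, and the summed level ran from 1054 to 1686 in knockdown and from 1185 to 2432 in wild-type, so the sums overlapped. Of its 6 tested genes 2 (Dcn and Col3a1) were higher in knockdown and 4 lower, with a median of -0.05, a range of -0.96 to 1.69 and 0 passing. Dcn (decorin) lay at 25.4 to 106 in knockdown and 13.3 to 25.0 in wild-type, without overlap, which held in this direction for 0.845% of all genes. Its log2 difference was 1.55 (SE 0.32, adjusted p = 0.118 with limma). Col3a1 reached 200.5 and 128.5 in the 2 libraries of knockdown culture 1, with 15.7 to 27.9 in the other 4 knockdown libraries and 1.95 to 50.6 in wild-type. Without that culture the Mmp2 change was 1.43 with an adjusted p of 0.41. Pdgfrb, a pericyte marker, lay at 175 to 710 in knockdown and 567 to 1195 in wild-type, a difference of -0.96 (SE 0.39, adjusted p = 0.264). Rgs5 and Acta2, also of this list, averaged only 1.49 and 4.14. Of 8 endothelial markers, Cdh5 and Tie1 were at 0 in all 12 libraries and the sum ran from 27.2 to 52.2 in knockdown and from 21.0 to 57.6 in wild-type. Of 11 microglial markers the sum ran from 28.5 to 63.2 in knockdown and from 42.6 to 198 in wild-type, so the sums overlapped. All 4 tested markers of this list were lower in knockdown (median -1.43), with 0 passing. C1qa and C1qb were at 0 in every knockdown library, but ran from 0 to 35.7 and from 0 to 13.4 in wild-type. Cd68 lay at 15.2 to 43.4 in knockdown and 20.7 to 48.8 in wild-type, and P2ry12 at 1.24 to 8.47 and 0.98 to 6.66. The part of these cells in the Mmp2 difference was not tested.

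Proteins that act on Mmp2 did not pass in the knockdown comparison. Timp2 has a dual role in that it inhibits Mmp2 and, with membrane-anchored Mmp14, holds the Mmp2 precursor at the cell surface for activation. Timp2 was at 3322, 3714 and 3546 read equivalents in wild-type untreated, at 5686, 4616 and 4202 in knockdown untreated, at 4150, 4645 and 4066 in wild-type TTX and at 6604, 5030 and 4740 in knockdown TTX. Knockdown lay above wild-type within each treatment, though the 6 and 6 libraries together overlapped. Its log2 difference was 0.39 (SE 0.11, adjusted p = 0.16 with limma), and the culture averages of 3907 ± 238 and 5146 ± 882 (SD, n = 3) gave an exact permutation p of 0.1. Mmp14, which cleaves the Mmp2 precursor, differed by 0.32 (SE 0.18, adjusted p = 0.387), and its knockdown range of 2690 to 4818 overlapped the wild-type range of 2086 to 4660.

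The other inhibitors also did not pass. Timp1, a broad inhibitor induced by cytokines in astrocytes, differed by 0.35 (SE 0.42), and its 4 highest libraries were those of wild-type culture 3 (286 and 361) and knockdown culture 3 (402 and 653), against 108 to 218 in the other 8. Timp3, which is bound to the matrix and inhibits ADAMTS proteases as well as MMPs, ran from 1529 to 3526 in knockdown and from 2312 to 3754 in wild-type, a difference of -0.31 (SE 0.21). Timp4, the inhibitor most restricted to brain, heart and muscle, differed by 0.52 (SE 0.31) and had its 2 lowest libraries in wild-type culture 1, at 199 and 225. The adjusted p values from limma for these 3 inhibitors were 0.696, 0.481 and 0.413.

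Among the ADAMTS proteases 6 of 13 were higher and 7 lower in knockdown, with a median of -0.02, and none passed. At an unadjusted p under 0.05 in limma there were 5 of these 13 and 11 of all 29 members, beside 16.8% of all genes. Adamts18, a protease whose loss disturbs eye development, lay at 66.8, 133 and 89.2 in wild-type untreated and 260, 162 and 177 in knockdown untreated. With TTX it lay at 165, 190 and 100 in wild-type and 347, 214 and 213 in knockdown. Knockdown was above wild-type within each treatment and overlapped over both, with a log2 difference of 0.92 (SE 0.23, adjusted p = 0.132 with limma) and a 1.85-fold difference of culture averages (exact permutation p = 0.1). The other large differences went down: Adamts19 by -0.77 (SE 0.34) and Adamts10, which acts on fibrillin microfibrils, by -0.53 (SE 0.20), with adjusted p of 0.289 and 0.244 in limma. Adamts15, one of the lectican-cleaving proteases, differed by 0.40 (SE 0.14, adjusted p = 0.22).

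A further pair of genes with low levels stood out in size without passing. Adamtsl5, an ADAMTS-like protein that binds fibrillin, had 19.8, 29.2 and 24.5 read equivalents in wild-type untreated and 8.15, 16.0 and 7.0 in knockdown untreated, and 24.5, 42.5 and 34.3 against 14.1, 17.8 and 28.1 with TTX. The untreated groups did not overlap and the TTX groups did, and the difference over both was -0.99 (SE 0.23, adjusted p = 0.127 with limma). For Adamtsl5, as for Timp2, Adamts18 and Mmp28, separation of 3 against 3 libraries can give a two-sided permutation p no smaller than 0.1. The share of all genes with such a separation is not given here. Mmp28 (epilysin), a secreted MMP present in neurons and glia, had 23.4, 10.7 and 24.1 in wild-type untreated and 43.2, 35.4 and 34.6 in knockdown untreated, again without overlap. With TTX it had 22.7, 16.7 and 18.4 in wild-type and 20.5, 31.1 and 31.7 in knockdown, which overlapped, and the difference over both was 0.75 (SE 0.20, adjusted p = 0.152). Over all 29 tested genes 16 were higher and 13 lower in knockdown with a median of 0.10, beside 50.1% higher and a median of 0.00 over all genes. Within single treatments 0 members passed among untreated and 0 among TTX libraries, where 0 of all genes (0.0%) passed. At an unadjusted p under 0.05 in limma there were 6 and 3 of the 29, beside 6.1% and 8.17% of all genes.

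TTX and untreated libraries were compared to ask which genes follow the silencing of action potentials. Most of the 29 genes were higher with TTX: 24 of 29 in wild-type, 24 of 29 in knockdown and 24 of 29 over both genotypes, with medians of 0.28, 0.19 and 0.21 on the log2 scale, beside 54.2%, 52.8% and 55.5% of all genes and medians of 0.02, 0.01 and 0.02. With quantile normalization 23, 24 and 24 were higher. In the fit with groups alone 0 members passed in any of these contrasts, where 0.0331%, 0.0% and 0.199% of all genes passed (0.0166% higher in the last). At an unadjusted p under 0.05 in limma there were 4, 3 and 6 of the 29, beside 5.65%, 3.7% and 9.87% of all genes. With each culture as a term, which compares TTX and untreated libraries within pairs, 8 members passed over both genotypes. The 7 that rose were Adamts2, Adamts9, Adamts7, Mmp11, Mmp14, Timp1 and Timp2 (5.47% of all genes rose), and the 1 that fell was Mmp17 (7.54% of all genes fell, 13.0% in either direction). In wild-type alone 4 passed, all higher (Adamts2, Adamts7, Adamts9 and Mmp14), beside 3.18% of all genes, 0.845% higher and 2.34% lower. In knockdown alone 0 passed, beside 0.514% of all genes, 0.0745% higher and 0.439% lower. Over both genotypes the adjusted p of the 8 members lay between 0.175 and 0.787 with groups alone.

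**Figure D3:**
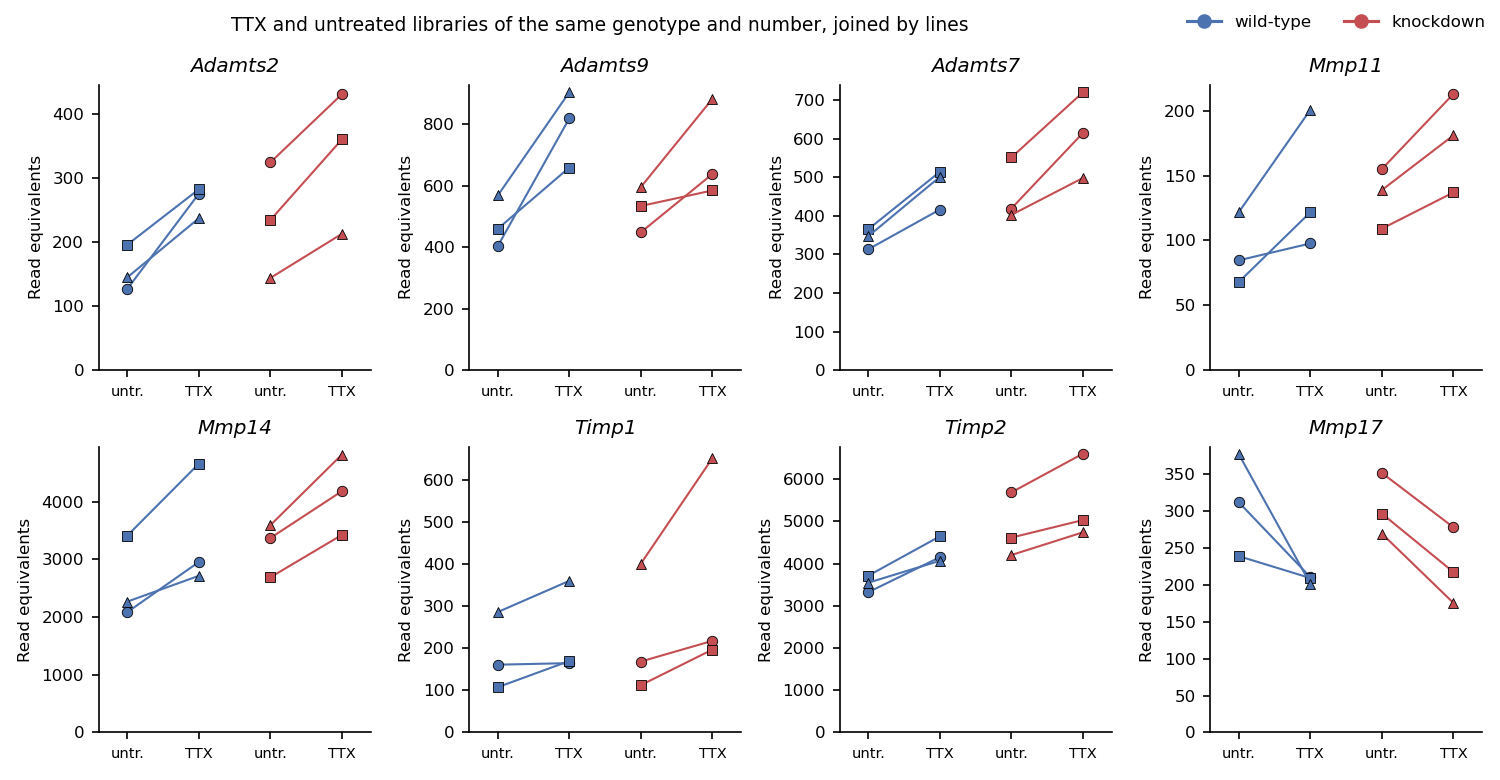
Levels of the 8 genes that passed with TTX over both genotypes (read equivalents, linear axes from 0), with a line joining the untreated and TTX libraries of the same genotype and number. All 6 lines rise for Adamts2, Adamts9, Adamts7, Mmp11, Mmp14, Timp1 and Timp2 and all 6 fall for Mmp17.

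Adamts2 (NM_001137622) removes the N-terminal propeptide from fibrillar procollagens. It went from 127, 196 and 145 read equivalents in wild-type untreated to 276, 283 and 237 with TTX, and from 325, 235 and 144 in knockdown untreated to 431, 361 and 213 with TTX. All 6 pairs were higher, and the 2 wild-type groups did not overlap while the 2 knockdown groups did. Here and for the genes below, groups of 3 that do not overlap can give a two-sided permutation p no smaller than 0.1. How often such groups separate over all genes is not given. With each culture as a term Adamts2 rose over both genotypes by a log2 change of 0.66 (SE 0.08, 1.58-fold, adjusted p = 0.0101 with limma) and by 0.78 (SE 0.12, adjusted p = 0.0324) in wild-type. In knockdown the change was 0.53 (SE 0.12, adjusted p = 0.093). Its relatives among the procollagen propeptidases, Adamts3 and Adamts14, were higher with TTX in 4 and 5 of 6 pairs and did not pass.

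Adamts9 (NM_001107877), a widely expressed protease that can cut the lecticans aggrecan and versican, went from 404, 460 and 568 to 819, 659 and 904 in wild-type and from 448, 534 and 596 to 638, 584 and 882 in knockdown. The wild-type groups did not overlap, and the knockdown groups did. It rose by 0.57 over both genotypes (SE 0.09, 1.48-fold, adjusted p = 0.0154 with limma and culture as a term) and by 0.74 in wild-type (SE 0.13, adjusted p = 0.0417), with a change of 0.40 in knockdown (SE 0.13, adjusted p = 0.174). Between genotypes its ranges were nearly the same, 404 to 904 in wild-type and 448 to 882 in knockdown. In the authors' deposited table for wild-type TTX against untreated, Adamts9 had a z of 3.285 and ranked 6 from the top, and Adamts2 a z of 2.795 and ranked 17.

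Adamts7 cuts cartilage oligomeric matrix protein and is best known from vascular smooth muscle. It went from 313, 365 and 347 to 416, 514 and 501 in wild-type and from 419, 551 and 402 to 614, 720 and 498 in knockdown. All TTX libraries of wild-type lay above its untreated ones. Adamts7 rose by 0.45 over both genotypes (SE 0.05, 1.36-fold, adjusted p = 0.00876 with limma and culture as a term) and by 0.48 in wild-type (SE 0.07, adjusted p = 0.0327). In knockdown its change of 0.41 (SE 0.07, adjusted p = 0.0681) passed only when culture was a random block (adjusted p = 0.0319). It was then the only member to pass, beside 2.89% of all genes, 0.712% higher and 2.18% lower. It was also 0.38 higher in knockdown than in wild-type (SE 0.12), with an adjusted p of 0.187.

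Of the 13 ADAMTS proteases, 3 rose with TTX over both genotypes with culture as a term (Adamts2, Adamts7 and Adamts9) and 0 passed with groups alone. Without regard to the test, 12 of 13 had a log2 change above 0 (median 0.33), beside 55.5% of all genes, and Adamts15 was the exception. The pairs were not of a single sign for all of them: Adamts3, Adamts5, Adamts10 and Adamts19 were each higher in 4 of 6. Of the 5 lectican-cleaving members (Adamts1, Adamts4, Adamts5, Adamts9 and Adamts15) 4 were higher and 1, Adamts9, passed. Adamts18 was higher in 6 of 6 pairs, with a change of 0.51 (SE 0.14) and adjusted p of 0.0631 in limma's culture-term fit and 0.0298 in its random-block fit. Adamts12, which also cuts cartilage oligomeric matrix protein, was higher in 6 of 6 pairs by 0.36 (SE 0.11, adjusted p = 0.0808), and Adamts14 in 5 of 6 by 0.46 (SE 0.13, adjusted p = 0.0708). Adamtsl5 was higher in 6 of 6 pairs by 0.67 (SE 0.21), with adjusted p of 0.085 in the culture-term fit and 0.0273 in the random-block fit.

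Among the MMPs, 7 of 9 were higher with TTX over both genotypes, with a median of 0.12. With culture as a term 2 passed as higher and 1 as lower. Mmp14 went from 2086, 3412 and 2268 read equivalents to 2955, 4660 and 2716 in wild-type and from 3371, 2690 and 3594 to 4183, 3426 and 4818 in knockdown. The groups overlapped in wild-type and in knockdown, since the cultures differed in level, but each pair was higher with TTX. Mmp14 rose by 0.38 (SE 0.05, 1.30-fold, adjusted p = 0.0113 with limma and culture as a term), with 0.40 in wild-type (SE 0.07, adjusted p = 0.0471) and 0.36 in knockdown (SE 0.07, adjusted p = 0.0829). Mmp11 (stromelysin-3), which unlike most MMPs is activated inside the cell by furin, went from 84.7, 67.9 and 122 to 97.7, 122 and 201 in wild-type and from 155, 109 and 139 to 213, 137 and 181 in knockdown. It rose by 0.49 (SE 0.09, adjusted p = 0.0218), and its groups overlapped in each genotype.

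Mmp17, held on the membrane by a lipid anchor and linked to the processing of Adamts4, was the only member to pass as lower with TTX. It went from 312, 239 and 378 to 211, 209 and 202 in wild-type, without overlap, and from 352, 297 and 270 to 278, 218 and 176 in knockdown, with overlap. Its log2 change over both genotypes was a fall, at -0.51 (SE 0.10), which passed with limma and culture as a term (adjusted p = 0.0242). The change was -0.55 in wild-type (SE 0.14, adjusted p = 0.0861) and -0.47 in knockdown (SE 0.14, adjusted p = 0.151). For the other membrane-anchored MMPs the ranges of the genotypes overlapped. Mmp15 lay at 3308 to 4588 in wild-type and 3022 to 4291 in knockdown, Mmp16 at 1692 to 2482 and 2089 to 2489, and Mmp24, known for cutting N-cadherin at synapses, at 2956 to 3406 and 3108 to 4505. None of these 3 passed in any comparison. Mmp2, the gene raised in knockdown, was 0.20 higher with TTX (SE 0.10, adjusted p = 0.242), and Mmp19 was 0.21 higher in 6 of 6 pairs (SE 0.06, adjusted p = 0.0683).

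Of the inhibitors, Timp1 and Timp2 rose with TTX. Timp2 went from 3322, 3714 and 3546 to 4150, 4645 and 4066 in wild-type, without overlap, and from 5686, 4616 and 4202 to 6604, 5030 and 4740 in knockdown, with overlap. It rose by 0.23 (SE 0.05, 1.17-fold, adjusted p = 0.0296 with limma and culture as a term). Timp1 went from 161, 108 and 286 to 165, 170 and 361 in wild-type and from 169, 112 and 402 to 218, 197 and 653 in knockdown, so all 6 pairs were higher but wild-type culture 1 only by a few read equivalents. Timp1 rose by 0.48 (SE 0.10, adjusted p = 0.0301), which culture as a random block did not retain (adjusted p = 0.101). Timp3 was 0.21 higher (SE 0.06, adjusted p = 0.0808), and Timp4 ran from 199 to 614 in wild-type and from 397 to 719 in knockdown and was higher in 4 of its 6 pairs.

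Counting pairs, 11 of the 29 genes were higher with TTX in 6 of 6 pairs (Adamts2, Adamts7, Adamts9, Adamts12, Adamts18, Adamtsl5, Mmp11, Mmp14, Mmp19, Timp1 and Timp2), beside 11.8% of all genes, and 1 was lower in 6 of 6 (Mmp17), beside 11.7%. With culture as a random block 8 members were higher and 1 lower over both genotypes, beside 7.31% higher and 9.43% lower of all genes (16.7% in all). In wild-type 4 were then higher and 1 lower, beside 6.05% of all genes, with 4.2% lower. Leaving out 1 culture, with culture as a term, left 9, 7 or 3 members without wild-type culture 1, 2 or 3, and 0, 4 or 2 without knockdown culture 1, 2 or 3. Without knockdown culture 1 limma's adjusted p values of the 8 genes lay between 0.0515 and 0.132. Every change kept its direction, as it had to with all 6 pairs of each gene of the same sign.

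**Figure D4:**
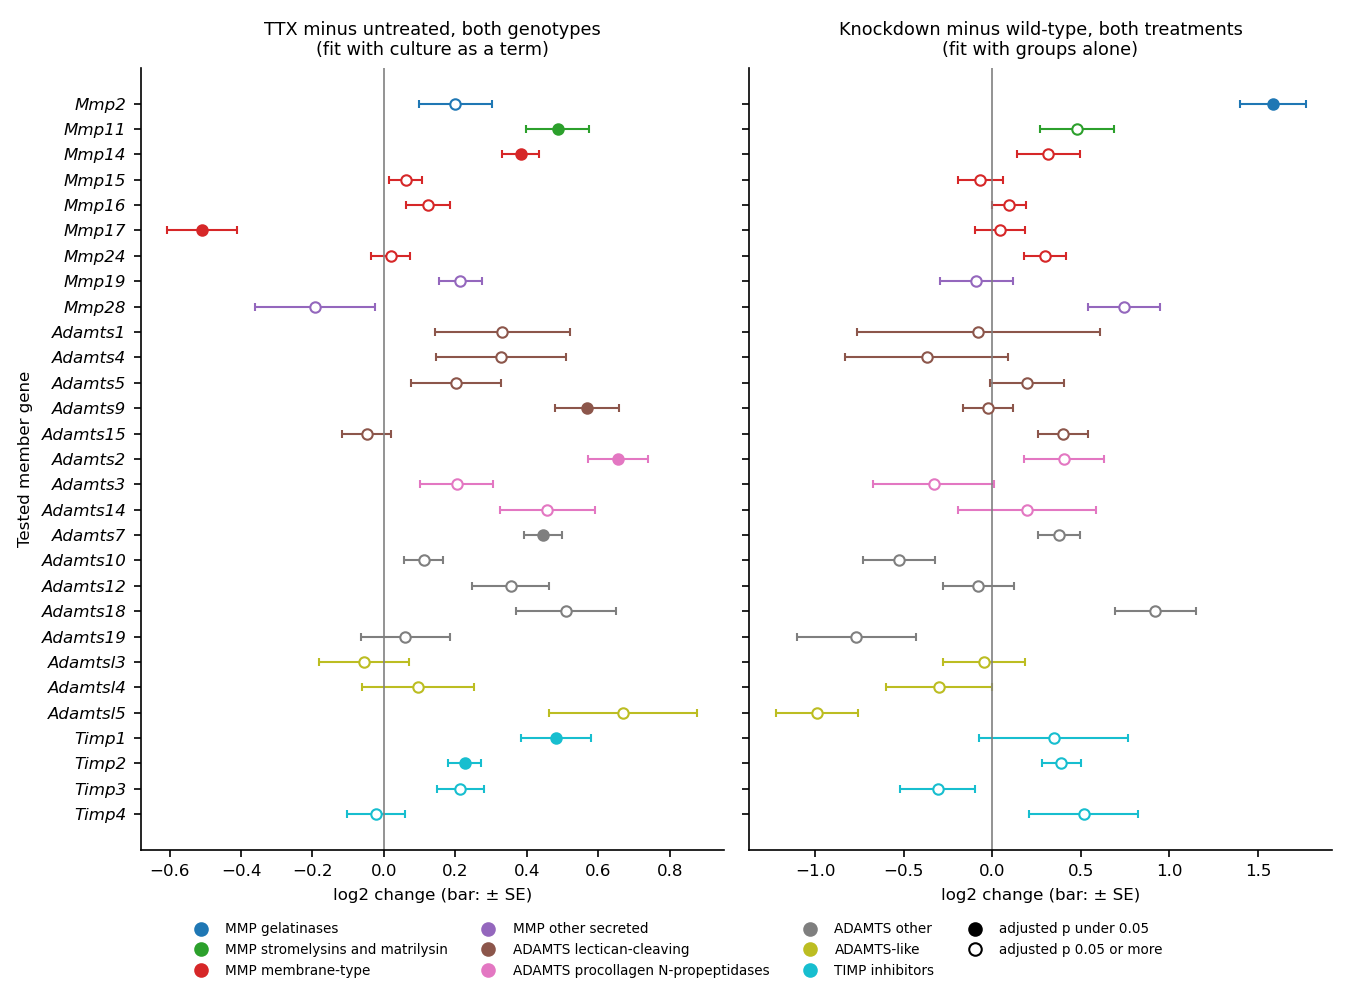
Log2 changes of the 29 tested genes with their standard errors, on the left TTX minus untreated over both genotypes with culture as a term and on the right knockdown minus wild-type with groups alone, with filled points for an adjusted p under 0.05. On the left 7 filled points lie above 0 and 1 (Mmp17) below it, and on the right the only filled point is Mmp2 at 1.58.

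Markers of neurons moved with TTX too. All 12 neuron markers were lower over both genotypes (median -0.31, 7 passing with culture as a term in limma), and their summed level was 53701 to 58317 with TTX against 64055 to 75201 untreated in wild-type, and 53861 to 85132 against 71056 to 104770 in knockdown. All 7 progenitor markers were higher (median 0.22, Mki67 and Top2a passing), and 10 of 11 tested astrocyte markers were higher (median 0.18, 0 passing). Of the mural-cell and fibroblast markers 5 of 6 tested were higher (median 0.31, 0 passing), of the microglial markers 4 of 4 tested (median 0.34, 0 passing), and of the oligodendrocyte lineage markers 7 of 9 (median 0.10, Olig1 passing). Summed astrocyte markers ran from 188430 to 239450 with TTX and from 148570 to 217040 untreated in wild-type. No neuron, progenitor or astrocyte marker was at 0 in all 12 libraries. In knockdown all 12 neuron markers were higher than in wild-type (median 0.36, 0 passing), and 7 of 9 oligodendrocyte lineage markers were lower (median -1.65, 0 passing). The part of these shifts in the protease values was not tested.

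The interaction, which asks whether TTX acted differently in knockdown and wild-type, passed for 0 of 29 members and for 0 of 12073 genes with limma, both with groups alone and with culture as a term. At an unadjusted p under 0.05 it held for 0 members and 53 genes (0.439%) in the groups-alone fit. The 3 members with the smallest p in that fit were Adamts5 at -0.57, Mmp28 at -0.51 and Adamts9 at -0.33 on the log2 scale, with standard errors of 0.25, 0.34 and 0.18 with culture as a term and adjusted p of 0.974 for each. Adamts5, the main aggrecan-cutting protease of cartilage, averaged 71.1 ± 27.3 and 96.3 ± 20.4 in wild-type and 95.5 ± 16.1 and 90.9 ± 22.8 in knockdown (SD, n = 3 each, untreated then TTX), and all 4 groups overlapped. The TTX calls in wild-type alone, with 0 in knockdown alone, therefore do not show a difference between genotypes.

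The lecticans and their partners in perineuronal nets, which ADAMTS proteases cut or bind, were followed as a list of 15 genes, of which 14 were tested. With TTX 11 of 14 were higher over both genotypes (median 0.18), and Hapln4, which links brevican to hyaluronan, rose by 0.41 (SE 0.06, adjusted p = 0.0123 with limma and culture as a term). Acan, the core protein of aggrecan, went the other way, from 210, 452 and 302 to 196, 96.8 and 200 in wild-type and from 404, 227 and 200 to 91.8, 126 and 113 in knockdown. Its change was -1.12, with SE 0.31 and adjusted p = 0.0643 in limma's culture-term fit and SE 0.24 and adjusted p = 0.0131 in its random-block fit. In knockdown 10 of 14 were lower than in wild-type with a median of -0.33, and 0 passed (3 at an unadjusted p under 0.05 in limma, beside the 16.8% of all genes given above). Among them Tnr (tenascin-R) lay at 4018 to 8258 in wild-type and 1480 to 3029 in knockdown without overlap, beside 1.04% of all genes in this direction. Tnr differed by -1.23 (SE 0.22, adjusted p = 0.112), and Tnc (tenascin-C) by -1.59 (SE 0.62, adjusted p = 0.247).

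A list of 26 other regulators of proteolysis around cells held 25 genes in the table, of which 23 were tested. With TTX over both genotypes 14 were higher and 9 lower (median 0.04), and 4 fell with culture as a term in limma while 0 rose. These were the testicans Spock1 by -0.65 (SE 0.08, adjusted p = 0.0101) and Spock3 by -0.53 (SE 0.08, adjusted p = 0.0123), proteoglycans of which Spock3 is known to inhibit activation of Mmp2 by membrane-anchored MMPs. The others were Serpini1 (neuroserpin, the brain inhibitor of tissue plasminogen activator) by -0.38 (SE 0.05, adjusted p = 0.0119) and the proprotein convertase Pcsk5 by -0.28 (SE 0.07, adjusted p = 0.0491). In knockdown 13 of these 23 were higher and 10 lower (median 0.14), and 0 passed (5 at an unadjusted p under 0.05, beside the same 16.8%). Serpini1 lay at 1787 to 3172 in wild-type and 3094 to 4633 in knockdown, with a small overlap and a difference of 0.54 (SE 0.11, adjusted p = 0.115), and Pcsk5 differed by 0.61 (SE 0.14, adjusted p = 0.124).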

How the data were processed

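The authors' deposited signal is taken to be coverage, a sum of covered bases per RefSeq transcript, scaled by a library's size factor. No source states this: within a library the values were whole multiples of 1 step, and small values gathered at multiples of 42 such steps. The tolerance was 0.01 of a step but grew with the value, so the check says little for the highest values. The submitters' processing notes name GSNAP, DESeq, DESeq2 and the rn6 genome, without versions. The deposited scores were the authors' signed z values. Over 96 values with z not close to 0, the authors' p-values equalled the one-sided normal tail of z within 1.72%. Values with z close to 0 were left out of that check and need not follow it. For Adamts12, in the comparison of 6 against 6 libraries, the deposited z was -0.005 and the deposited p 0.786. Whether they were adjusted is not stated.

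Division by 42 gave read equivalents. Where a symbol had several entries, as Mmp11 and Mmp28 did, that with the highest mean was kept. With limma 3.58.1 in R 4.3.3, linear models without trend or robust options were fitted to log2(value + 1) of genes that reached 10 read equivalents in 3 or more libraries. The 4 groups were the only term, with 8 residual degrees of freedom. Benjamini-Hochberg adjustment ran over all 12073 genes with a two-sided threshold of 0.05. Fold changes are on the log2(value + 1) scale and understate changes of low genes.

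Deviations from group means of same-numbered TTX and untreated libraries correlated at 0.44, 0.61 and 0.85 in wild-type and 0.78, 0.69 and 0.77 in knockdown, and all 6 correlations between genotypes were negative. The numbers were therefore taken to pair libraries within a genotype. This is inferred, and pairs may share a lane or a day instead. Fits used culture as a fixed term (4 residual degrees of freedom), as a random block (correlation 0.714), or culture averages. Adjusted p values for TTX come from the fixed term and those for knockdown from groups alone, unless stated.

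Genes named individually are Mmp2, Adamts2, Adamts9, the TIMPs, members that passed in any contrast, the 3 with the smallest p per contrast and the 10 with the highest mean. Others are described by count or range, or were added after their values were seen. The members and lists were chosen with earlier results of these data known. The fits were tested on simulated data. Gene neighbours and promoter sequences came from RefSeq GRCr8, and no rn6 coordinates are given.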

Additional observations from a re-analysis of the deposited data

How the results depend on the processing

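Measured against the fit with groups alone, in which the only member passing is Mmp2 in knockdown, 65 log2 changes of single genes gave 1676 values under alternatives. Of these 1608 kept their direction and their side of the threshold, 54 came to pass, and 13, all of Mmp2, no longer passed. The TTX calls rest on culture as a term: with 1 culture left out, the 8 members passing over both genotypes kept their direction in 48 of 48 values. This could not have come out otherwise, since all 6 pairs of each gene had the same sign. The 8 members no longer passed in 26 of the 48. These were 1 of 6 each for Adamts2 and Adamts7, 2 for Mmp14, 3 for Adamts9, 4 for Mmp11 and 5 each for Mmp17, Timp1 and Timp2. The 1 that turned was Timp1 with TTX in wild-type, at -0.028 without the third wild-type TTX library (up to 0.71 with another left out), where the cause was not tested. With groups alone the members passing were 0 in all contrasts but knockdown over both treatments, with 1. In the replicate block with culture as a fixed term they were 4 (TTX in wild-type) and 8 (TTX over both genotypes), and with culture as a random block 5 and 9, 1 for TTX in knockdown and 0 for knockdown. A block on the number shared by all groups gave 1 for TTX over both genotypes, culture averages 0 for knockdown, and leaving out knockdown culture 1 with both its libraries, an alternative chosen after seeing the data, 0 for knockdown. Over all genes, groups alone gave 4, 0 and 24 for TTX in wild-type, in knockdown and over both, and 0, 0 and 3 for knockdown in untreated, in TTX and over both. In that order the block with culture as a fixed term gave 384, 62 and 1570 for TTX, and the random block 730, 349 and 2022 with 0 for knockdown over both. The block on the shared number gave 96 (TTX over both) and 15 (knockdown over both). No filter gave 2 and 3 for TTX in wild-type and in knockdown, and 1, 2 and 6 for knockdown. The deposited scale gave 11 and 5, then 9, 9 and 14, and 7 for the interaction. Quantile normalization gave 2 (TTX in wild-type) and 45 (TTX over both), the 2 groups alone 0 (TTX in wild-type), a pseudocount of 5 gave 57 and trend with robust 58 (both TTX over both), and 1 for knockdown. Culture averages gave 0 for knockdown, and without knockdown culture 1 there were 1, 1 and 0 for TTX in wild-type, TTX over both and knockdown over both. With 1 library left out, members passing stayed at 0 except for knockdown over both, with 0 to 1, and genes passing ran from 0 to 3, 0 to 1 and 10 to 23 for TTX, and 0 to 0, 0 to 1 and 0 to 2 for knockdown. With 1 culture left out and culture as a term, members passing ran from 0 to 1 (TTX in wild-type), 0 to 0 (in knockdown) and 0 to 9 (over both), and genes from 11 to 58, 0 to 145 and 140 to 1553. For wild-type cultures 1, 2 and 3 and then knockdown cultures 1, 2 and 3 the genes passing were 58, 32, 37, 11, 16 and 23 for TTX in wild-type and 1553, 1192, 551, 140, 787 and 376 over both. The interaction stayed at 0 to 0 in both. At low levels 1 read equivalent is a large share of a value, so changes of Adamtsl5, Mmp28 and Adamts1 are imprecise, and the 12 MMPs under the filter were not tested.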
